A study of Mus musculus with 2 samples.

Results

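Of the 422 genomic regions listed after chromatin immunoprecipitation of Smyd2 from mouse kidney epithelial cells, 8 lay in or beside 7 genes that encode regulators of transcription or chromatin: Gata6, Mxi1, Zbtb16, Rtf1, Setdb2, Hjurp and Rbbp4. The wild-type list contributed 3 of the 8 regions (of 187) and the null list 5 (of 235). A region was counted when the authors' gene column named the gene or when the region's midpoint lay inside, or within 1 kb of, the gene's span on mouse assembly GRCm38. The 7 genes were chosen by their measured regions, several of them for a position near a gene end, so that having a region, its reads and that position are descriptions and carry no test. The outermost midpoints inside the 1 kb limit were 435 bp (Gata6) and 803 bp (Mxi1) from a span, and the authors' gene column names both genes. The nearest midpoint outside the limit, of 12 reads in the wild-type list, was 79.8 kb beyond the 3′ end of Gata6.

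The study sequenced chromatin bound by an antibody against Smyd2 from MEK cells, renal epithelial cells from C57BL/6 embryos, to find genes with Smyd2 at them in each of 2 genotypes. One library was made from Pkd1 wild-type cells, Pkd1 being the polycystin gene mutated in dominant polycystic kidney disease, and the other was made from Pkd1null/null cells. Both were cultured in medium with interferon-gamma, insulin, transferrin and hydrocortisone, and nothing in the labels says whether either line was a single clone. With 1 library for each genotype there was no replicate error and no test of the genotypes. No input or control-antibody library was analysed here, and lists of regions offer no marker levels by which to check the cell type.

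Smyd2 belongs to a family of lysine methyltransferases with a SET domain, the fold that transfers methyl groups to lysine, and modifies histones as well as other proteins such as p53. The genes described here act at different steps of gene control. Gata6, Mxi1 and Zbtb16 encode proteins that bind DNA sequence and switch genes on or off; Rtf1 acts on RNA polymerase II as it moves along a gene; Setdb2 is itself a histone lysine methyltransferase; and Hjurp and Rbbp4 escort histones into chromatin.

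For Mxi1 and Rtf1 the region lay beside the first start site, and the 250 bases before that site are shown because they are the nearest promoter sequence to any of the 8 regions that the reference tables hold. Neither region reaches into its window: 555 bp separate the Mxi1 window from its region and 483 bp the Rtf1 window. The Mxi1 window lies inside the gene's span, which begins at 53310128, whereas the Rtf1 window lies just before the span of Rtf1. The sequences are from RefSeq (GRCm38.p6, plus strand of chr19:53310256-53310505 and of chr2:119674818-119675067), written 5′ to 3′, with capitals marking the GC box GGGCGG read on either strand.
Mxi1: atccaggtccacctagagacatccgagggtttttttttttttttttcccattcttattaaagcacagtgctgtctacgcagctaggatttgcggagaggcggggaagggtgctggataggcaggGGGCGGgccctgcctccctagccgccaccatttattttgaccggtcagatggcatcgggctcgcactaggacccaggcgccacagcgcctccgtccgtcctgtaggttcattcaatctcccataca
Rtf1: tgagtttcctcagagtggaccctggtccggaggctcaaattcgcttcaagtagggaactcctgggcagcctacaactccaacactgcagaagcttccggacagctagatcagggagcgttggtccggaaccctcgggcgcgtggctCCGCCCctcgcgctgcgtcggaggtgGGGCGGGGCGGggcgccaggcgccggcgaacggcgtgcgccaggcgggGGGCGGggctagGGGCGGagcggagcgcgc

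The promoter table held 5 of the 7 genes, the others being Gata6 and Zbtb16. In the Rtf1 window the GC box, a short motif bound by Sp1-type factors, began at 5 positions, some overlapping each other, and in the Mxi1 window at 1. It was present in 32.7% of the 32851 promoter windows of the same length. The Rtf1 window was 70.4% G or C with 28 CpG dinucleotides, and the Mxi1 window 55.2% with 13, beside medians of 52.4% and 6 over all windows. Mxi1 has 2 further start sites in the table, with windows 19.5 kb or more from the region, one of them of 77.2% G or C and 42 CpG. Windows of Setdb2, Hjurp and Rbbp4 held 24, 16 and 30 CpG, although the regions of these genes lay far from them. The GC box was not limited to windows near a region. It began at 2 and 4 positions in the further Mxi1 windows and at 2 in the Rbbp4 window. In the windows of Setdb2 and Hjurp it began at 0. Of the other motifs searched on both strands, the E-box CACGTG, a sequence that MAX dimers bind, occurred once, at Rbbp4 (6.02% of all windows), and the CCAAT box occurred at Setdb2, Hjurp and Rbbp4 (33.8% of all windows). The TATA box TATAAA was in none of the members' windows (12.4% of all windows). A match describes letters only and is no evidence of binding.

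All 8 regions held few reads, between 12 and 18. Here reads are 2 raised to the deposited value, which was whole for every region and was therefore taken as unscaled reads, and each interval is an exact Poisson 95% interval that covers counting error only. The wild-type list had a median of 14 reads and the null list a median of 13, and no region of either held under 11. So 7 of the 8 regions were at or above the median of their own list. With ties at the median, 58.3% of all wild-type and 67.7% of all null regions were too. Both Zbtb16 regions and those of Rtf1 and Rbbp4 lay exactly at the median, so the count of 7 does not set these genes apart. All 8 regions were far below the highest regions, of 1893 and 1396 reads. Their intervals overlap one another, and the order of the genes by reads is therefore not resolved at this depth. None of the 8 was shared: 0 of 3 wild-type and 0 of 5 null regions overlapped a region of the other list by 1 bp or more. Of all regions, 16.6% of wild-type and 13.2% of null ones did. With so few member regions, 0 does not set these genes apart. Since a list gives no reads for places it leaves out, a gene found in 1 list cannot be said to have lost or gained Smyd2 in the other cells.

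**Figure D1:**
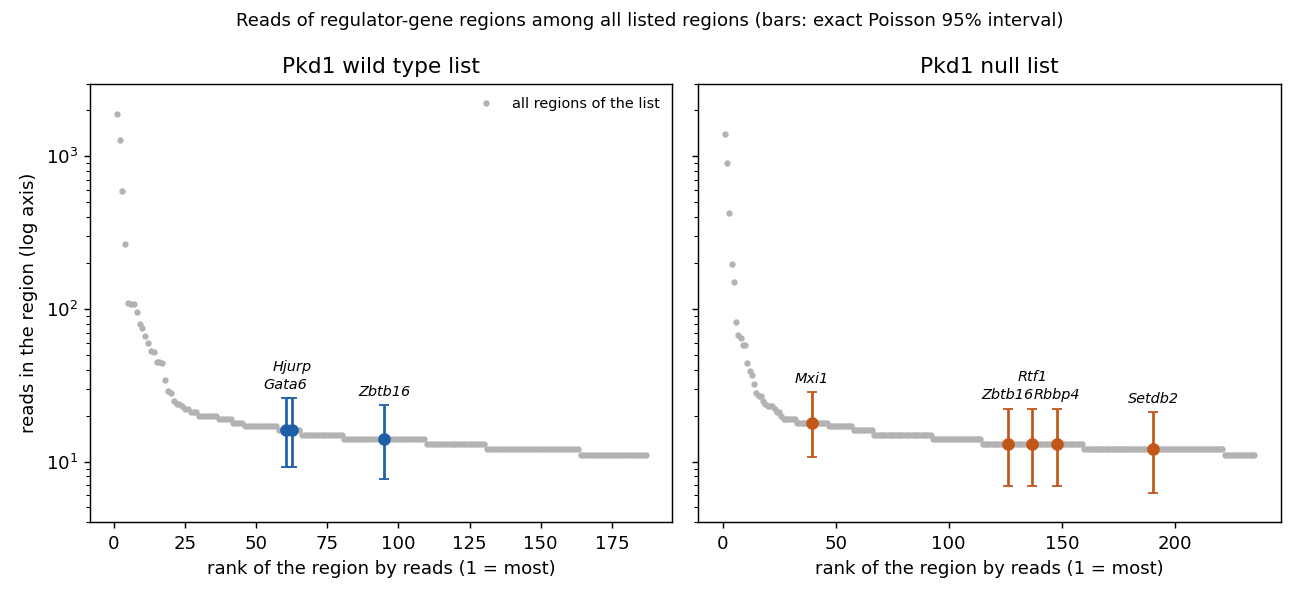
Reads in each listed region (log axis) against its rank in the Pkd1 wild type list (left) and the Pkd1 null list (right), with all regions in grey and regulator-gene regions in colour with exact Poisson 95% intervals; ties are spread along their rank. The coloured points sit on the long flat part of each curve, between 12 and 18 reads, with intervals that overlap.

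Among the DNA-binding factors, Gata6 had a region at its start site in the wild-type list. Gata6 encodes a zinc finger factor of the GATA family that acts in the development of the heart and of endoderm-derived organs. The region, at chr18:11051701-11052450, held 16 reads (9.15 to 26.0). In the wild-type list 65 regions, or 34.8%, held at least as many. It ended 60 bp before the Gata6 span, 11052510 to 11085636, and its midpoint was 435 bp upstream of the start. That start was taken as the edge of the span, because the promoter table has no entry for Gata6. The strand of Gata6 was read from the authors' orientation word, because at all 4 regions outside a gene of known strand the word downstream marked a region on the start side and upstream one on the 3′ side. The whole 750 bp region also lay inside Gata6os, a long non-coding RNA gene whose span, 11042037 to 11052567, overlaps that of Gata6 by 58 bp. Gata6 had no region in the null list, whose nearest region was 2858 kb away.

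Mxi1 had the most reads of the 8, in a null-list region just before the gene. Mxi1 encodes a partner of MAX that represses genes which MYC with MAX activates. The region, at chr19:53308951-53309700, held 18 reads (10.7 to 28.4), and 46 null regions, or 19.6%, held at least as many. Its midpoint was 803 bp before the Mxi1 span (53310128 to 53373293) and 1181 bp upstream of the first start site in the promoter table, so it fell outside a 1 kb window on that start site. The distance of 806 bp in the authors' list runs from the region's edge to the same start site. Measured to the edge of the span, the point used for Gata6, the Mxi1 midpoint was within 1 kb. The positions given to Gata6 and Mxi1 therefore rest on different definitions of the start. All 750 bp lay inside Gm30541, a predicted long non-coding RNA gene on the opposite strand, whose span covers 16740 bp of Mxi1. No wild-type region was nearer than 5816 kb.

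Zbtb16 was the only one of the 7 genes with a region in both lists, and the regions were at different places. Zbtb16 encodes PLZF, a repressor with a BTB domain and zinc fingers that recruits histone deacetylases. The wild-type region, at chr9:48751351-48752100, held 14 reads (7.65 to 23.5), and the null region, at chr9:48723301-48723900, held 13 (6.92 to 22.2). Against their own lists, 58.3% of wild-type and 67.7% of null regions held at least as many. The regions were 27.5 kb apart, and both lay deep inside the gene, which spans 184 kb (48651797 to 48836225). The wild-type midpoint was 99.9 kb from the lower-numbered end and 84.5 kb from the higher, and the null midpoint 71.8 kb and 113 kb. The strand of Zbtb16 was not used here, so start and 3′ end were not told apart. Only 5.03% of protein-coding genes in the table are as long or longer.

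Genes hit in both lists were compared to place Zbtb16. Of 95 protein-coding genes with a wild-type region midpoint inside them, 15 held a null midpoint too. These are 15.8% of the wild-type genes and 12.5% of the 120 null genes. At 12 of the 15 the regions of the lists overlapped. Zbtb16, Cacng3 and Prpsap1 were the other 3, in which the lists marked separate places.

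Rtf1, an elongation factor associated with the PAF1 complex on RNA polymerase II, had a null-list region just after its start. The region, at chr2:119675551-119676300, held 13 reads (6.92 to 22.2), the median of the null list. It lay wholly inside Rtf1 (119675068 to 119735407), with its nearer edge 483 bp and its midpoint 858 bp downstream of the only start site in the table. No other gene was within 1 kb of the midpoint, and the nearest wild-type region was 3227 kb away. On the chromosomes of the promoter table used here, 5.22% of 230 null regions and 3.85% of 182 wild-type regions had a midpoint within 1 kb of a start site, and within 2 kb the null share was 10.4%. Rtf1 was the 1 of 5 null members there, and neither wild-type member on those chromosomes (Hjurp and Zbtb16) was. Zbtb16 has no entry in the promoter table, so its own start site could not count in either list. The position of Rtf1 helped to choose it, so the share is given as background only.

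Setdb2, a methyltransferase of the family that acts on lysine 9 of histone H3, had the fewest reads. Its null-list region, at chr14:59411101-59411700, held 12 reads (6.20 to 21.0), and 94.0% of null regions held at least as many. The region lay inside Setdb2 (59402009 to 59440880, minus strand), 29.5 kb downstream of the start and 9.39 kb before the 3′ end by its midpoint. The predicted gene Gm45935, which the table also calls Setdb2-phf11c, starts at the same base, runs through the whole of Setdb2 and contains the region as well. The nearest wild-type region was 11554 kb away.

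Both histone chaperone genes had their region at the 3′ end, where each gene meets a gene on the other strand. Hjurp encodes the chaperone that deposits the centromeric histone CENP-A. Its wild-type region, at chr1:88258801-88259550, held 16 reads (9.15 to 26.0), a number reached by 34.8% of that list. Hjurp is on the minus strand (88258856 to 88277644), and the midpoint was 18.4 kb from the start site and 320 bp before the 3′ end, with 695 of the 750 bp inside the span. Rbbp4 encodes a WD-repeat protein that binds histones in the CAF-1, NuRD, SIN3 and PRC2 complexes. Its null-list region, at chr4:129307201-129307950, held 13 reads (6.92 to 22.2). Rbbp4 is also on the minus strand (129307100 to 129335370), and the midpoint was 27.8 kb from the start site and 476 bp before the 3′ end.

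The authors' list gives neither of these regions to the chaperone gene. It names Heatr7b1, an older symbol of Mroh2a, for the first and Sync, which encodes the intermediate filament protein syncoilin, for the other. Mroh2a (88226991 to 88262289) and Sync (129287256 to 129309383) are on the plus strand. The 3′ part of Mroh2a overlaps Hjurp by 3434 bp, and that of Sync overlaps Rbbp4 by 2284 bp. The regions lay entirely within Mroh2a and Sync, so their reads cannot be assigned to 1 gene of each pair. Shares near a 3′ end cover the chromosomes and the protein-coding genes of the promoter table only. Genes without an entry there, such as Gata6 and Zbtb16, could not count. Within 1 kb of such an end were 0.549% of 182 wild-type regions, a single region that is the one at Hjurp. In the null list 0.87% of 230 regions were, which are 2 including the one at Rbbp4. That position was known when the genes were picked, and nothing is read from the count.

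**Figure D2:**
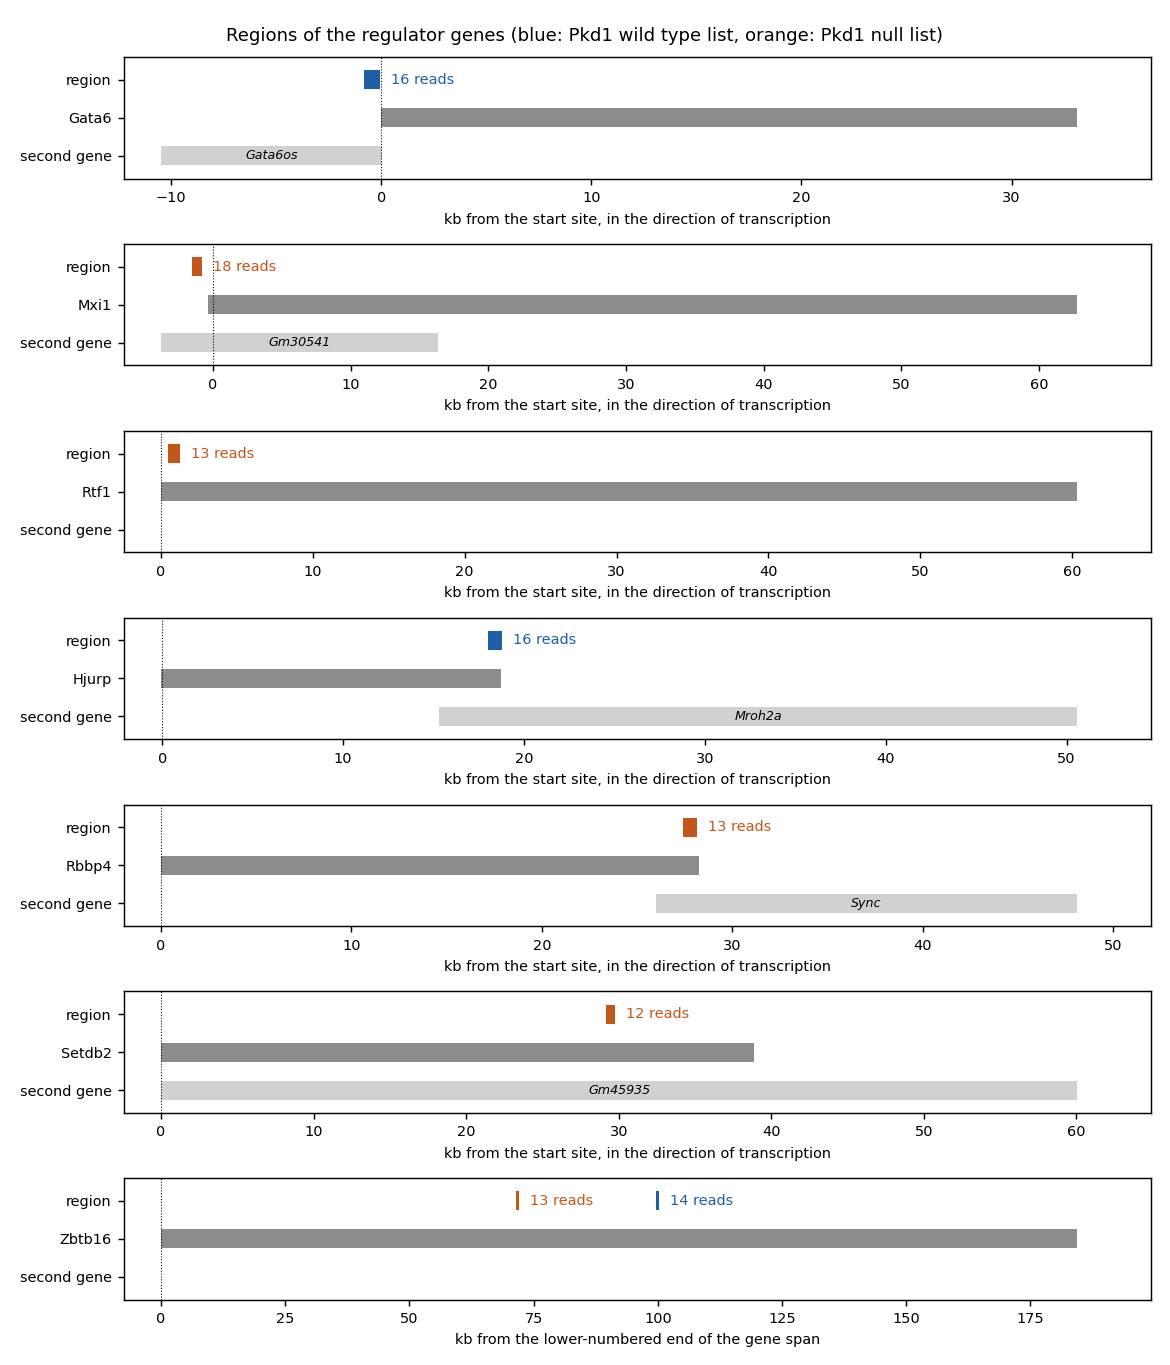
Position of each region (coloured by list, with its reads) relative to the gene (dark grey) and to any second gene within 1 kb of the region's midpoint (light grey), in kb from the first start site in the direction of transcription, or for Zbtb16 from the lower-numbered end. Regions of Gata6 and Rtf1 sit within 1 kb of the start, that of Mxi1 just before the gene, those of Hjurp and Rbbp4 at the 3′ end over a second gene, and those of Setdb2 and Zbtb16 inside.

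Both lists thus held a region at a start site, one at a 3′ end and one or more inside a gene. In wild type, 1 region was at a start site (Gata6), 1 at a 3′ end (Hjurp) and 1 inside (Zbtb16). In the null list, Rtf1 was at a start site, Mxi1 just before the gene, Rbbp4 at a 3′ end, and Setdb2 and Zbtb16 inside. Measured to the nearest end of a protein-coding gene, 2 of 3 wild-type and 3 of 5 null regions were within 1 kb, where 3.21% of all wild-type and 6.81% of all null regions were. These genes were partly picked for that distance. Over all regions the median distance was 33.2 kb in the wild-type and 36.0 kb in the null list.

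**Figure D3:**
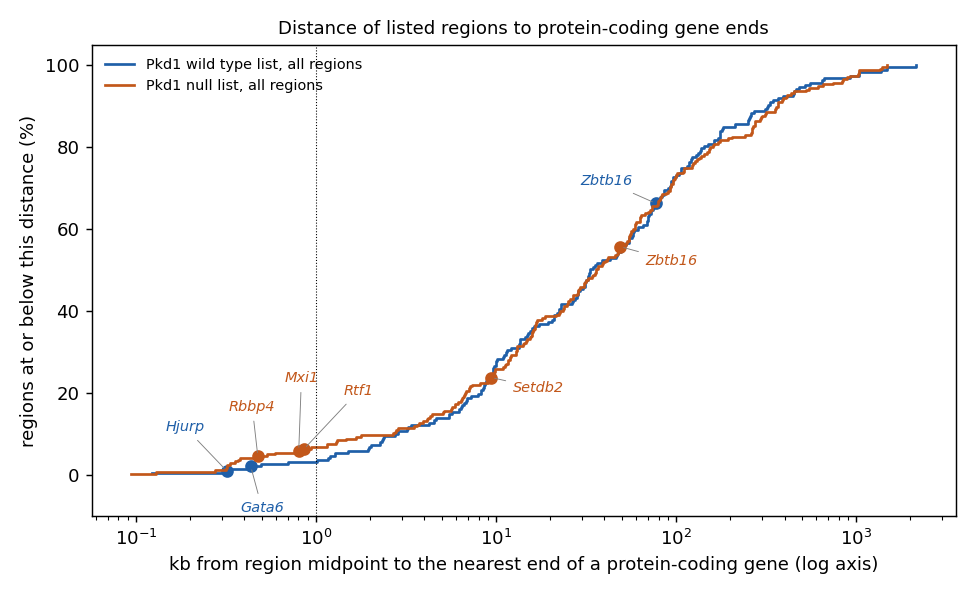
Share of regions (percent) with a midpoint at or below a given distance (kb, log axis) from the nearest end of a protein-coding gene, for the Pkd1 wild type list (blue) and the Pkd1 null list (orange), with the regulator genes as points and a dotted line at 1 kb. Gata6, Hjurp, Rbbp4, Mxi1 and Rtf1 lie left of the line, while Setdb2 and both Zbtb16 regions lie along the body of the curves.

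A second gene lay at the same place at 5 of the 8 regions: Gata6os at Gata6, Gm30541 at Mxi1, Gm45935 at Setdb2, Mroh2a at Hjurp and Sync at Rbbp4. At the last 2, where the authors' list names the second gene, the region was counted through its midpoint alone. By list these were 2 of 3 wild-type and 3 of 5 null regions. Among all regions within 1 kb of a protein-coding gene, 9.28% of 97 in wild type (Wilson 95% interval 4.96 to 16.7) and 12% of 125 in the null list (7.41 to 18.9) had a second gene within that distance. With no window the wild-type share was 4.26%. Since 5 of these 8 regions were near a gene end and some were picked for that, the shares stand side by side with no test, and the part of position in them was not tested. Counting protein-coding second genes only, 3 regions remained (Setdb2, Hjurp and Rbbp4). The shares were then 2.06% of the 97 wild-type and 2.40% of the 125 null regions, these 3 included.

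Genes that act with these regulators, in 8 lists of families and complexes, were searched for regions in the same way. Of 21887 protein-coding genes in the table, 0.452% had a wild-type region midpoint inside or within 1 kb, and 0.576% a null one. Of 100 partner genes found in the table, 0 had one in the wild-type list, so that the share may be as high as 3% (the limit set by 3 genes of 100). In the null list 1 did, a number too small to set apart from those shares. It was Cenpb, which encodes a protein that binds centromeric DNA. Its region, at chr2:131178301-131178900, held 11 reads (5.49 to 19.7), the lowest number in the list. The midpoint was inside Cenpb (131177289 to 131180067). The authors' list instead names Spef1 and marks it as overlapping, so the reads cannot be assigned to Cenpb alone. Beyond the members, no region was found at the 7 other GATA-factor and cofactor genes, the 12 genes of the MYC and MAX network, 26 genes of Rbbp4 complexes, 15 elongation genes with the PAF1 subunits, 10 genes of histone H3 lysine 9 methylation or 11 partners of Zbtb16. The same held for the 5 genes of the SMYD family, Smyd2 included. The regions at Hjurp (16 reads, wild-type list) and Cenpb (11 reads, null list) were in different lists. The authors' list gives each of them to another gene, so nothing about centromere genes is read from them.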

How the data were processed

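Both libraries were analysed as the authors deposited them, as 1 list of regions per library. Their columns, per the file headers, hold a region, a nearby gene with orientation and distance in bp, and a value from the mapped reads. The deposited value is a log2 number: 2 raised to it was whole within 0.001 for every region, and was read as the reads in the region. Per the submitters' processing notes the build was GRCm38; what aligned the reads and called the regions, at which threshold and with which control, is not given in the sources used here. Total depth is unknown, since the lists hold 7474 (wild-type) and 6718 (null) reads in regions only.

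Gene spans came from RefSeq (GRCm38.p6, 49943 genes), and strands and start sites from the RefSeq promoter table. Gata6 has no entry there, and the edge of its span was taken as its start. Start-site shares cover the chromosomes and the start sites of that table. The members and gene lists were chosen with earlier results of these data known. All members are named with every region, and every gene of the family lists with a region is named. Regions were shared at an overlap of 1 bp or more. Counting intervals are exact Poisson for reads and Wilson for shares, at 95%. No test was made, with 1 library per genotype. Alternatives covered windows, the point of a region, overlap rules, gene classes and read thresholds. Exons, introns and sequence under the regions were not analysed here. Joins were tested on simulated data. Python 3.11.15, numpy 2.4.6, scipy 1.17.1 and matplotlib 3.10.9 were used.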

Additional observations from a re-analysis of the deposited data

How the results depend on the processing

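No paired analysis was possible because there was 1 library for each genotype, and no replicate could be left out. Of 29 values under other settings, 23 stayed close to those reported (counts within 1.5 times, shares within the Wilson interval). The 8 regions were the same number with no window or a window of 5 kb, and 6 by the authors' gene column alone. With no window, Gata6 and Mxi1 stayed in only because the authors' gene column names them, so that setting could not remove them. Members at a start site fell from 2 to 1 (Gata6) within 500 bp, and were 3, with Mxi1, within 2 kb. The share of all null regions at a start site was 10.4% within 2 kb. Regions at a second gene numbered 3 with protein-coding second genes only. The shares were then 2.06% (wild type) and 2.40% (null) of regions within 1 kb of a protein-coding gene. With no window the wild-type share was 4.26%. The second-gene settings were chosen after seeing the data. Per kb of width, 5 rather than 7 regions reached their list's median: Rtf1 and Rbbp4 (17.3 reads per kb) fell below the null median of 18.9 and the wild-type Zbtb16 region (18.7) below the wild-type median of 20, while Setdb2 (20) came above the null median. At 12 to 18 reads, counting error alone spans about the whole range of the 8 regions.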

Other observations

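Other genes of transcription or chromatin, picked once their values were known, held regions of similar size according to the authors' gene column. In the wild-type list these were Cdk12, which encodes a kinase of the RNA polymerase II tail, and Polr1d, a subunit gene of RNA polymerases I and III, with 14 reads each. Phf20l1, a reader of methylated lysine, and Scrt2, a zinc finger repressor, had 13 reads each. Arid1b, a subunit gene of the BAF remodelling complex, and Phf21a, a partner of the demethylase LSD1, had 11 each. In the null list, Cecr2, a bromodomain gene of a remodelling complex, had 16 reads and Gtf2a1, a subunit gene of TFIIA, had 15. Cdk7, the kinase gene of TFIIH, Morc3, an ATPase gene of nuclear bodies, and Phip, a bromodomain gene, had 12 each, and Camta1, a transcription activator gene, had 11. All 12 regions had their midpoint inside the named gene, and 0 of the 12 were shared by both lists, beside 16.6% of all wild-type and 13.2% of all null regions; with 6 of the 12 in each list, 0 does not set these genes apart. The nearest to a gene end was that of Phf20l1, with its midpoint 1.28 kb from one.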
